A study of Mus musculus with 6 samples.

Results

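The genes described here are 10 markers of blood vessel endothelium, namely Clec14a, Pecam1, Cdh5, Kdr, Flt1, Tek, Tie1, Plvap, Esam and Emcn, in the whole pancreas of mice that lack Rkip-1 (KO) and of wild-type mice (WT). Clec14a was selected on its KO and WT values in this same comparison, in which it was low in KO, and the other 9 were named as endothelial genes, to see whether they followed it. All probe sets whose platform annotation gives 1 gene and that gene is one of the 10 were taken, which gave 15 of 45101 probe sets and 10 of 18193 genes. Each member had at least 1 such probe set. The KO group comprised 3 samples from mice without Rkip-1, a protein that restrains Raf and MEK signalling, and the WT group 3 samples from wild-type mice of the same colony. Both groups were 8 weeks old and C57BL/6, each sample was hybridised to 1 array, and the labels give neither sex nor the part of the gene that was removed. Replicates are called biological in the sample titles, without a statement of how many animals gave each. Pebp1, which encodes Rkip-1, measured 5.89, 6.50 and 5.71 in KO and 9.81, 10.01 and 9.81 in WT. Acinar and islet markers fitted the labelled tissue, with Cpa1 above 99.97% and Ins2 above 99.80% of all values.

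Endothelial cells line vessels and capillaries, and in pancreas they supply the acini and form the dense fenestrated capillary bed of the islets. They are held together by junction proteins such as VE-cadherin and PECAM-1, and they respond to VEGF and angiopoietins through receptor tyrosine kinases. CLEC14A is a surface glycoprotein with a C-type lectin domain that is found on endothelium, where it binds the matrix protein multimerin-2 (Mmrn2), as does its relative CD93. In bulk tissue, fewer cells of a type and less RNA per cell cannot be told apart.

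Transcription of many endothelial genes depends on ETS factors such as ERG and FLI1, whose core site reads GGAA, and on SOX factors of the SOX7, SOX17 and SOX18 group, whose sites contain ACAAT. RefSeq promoters on GRCm38.p6 were matched for 6 of the 10 members. The 250 bases before the annotated start are shown for Clec14a (chr12:58269259-58269508, minus strand), for Kdr (chr5:75978456-75978705, minus strand), whose level lay close in both genotypes, and for Tek (chr4:94739039-94739288, plus strand), which had the largest difference among the other 9. They are printed 5′ to 3′ along the gene, with GGAA and its complement TTCC in capitals.
Clec14a: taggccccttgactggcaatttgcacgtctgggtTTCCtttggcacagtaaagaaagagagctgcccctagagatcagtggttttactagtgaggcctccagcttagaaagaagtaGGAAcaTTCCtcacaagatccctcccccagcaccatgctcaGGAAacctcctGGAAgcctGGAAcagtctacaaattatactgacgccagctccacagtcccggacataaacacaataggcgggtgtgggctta
Kdr: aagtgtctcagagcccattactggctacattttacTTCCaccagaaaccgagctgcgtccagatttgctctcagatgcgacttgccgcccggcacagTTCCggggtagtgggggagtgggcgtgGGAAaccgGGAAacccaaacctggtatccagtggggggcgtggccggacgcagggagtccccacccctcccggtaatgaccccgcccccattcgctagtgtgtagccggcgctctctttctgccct
Tek: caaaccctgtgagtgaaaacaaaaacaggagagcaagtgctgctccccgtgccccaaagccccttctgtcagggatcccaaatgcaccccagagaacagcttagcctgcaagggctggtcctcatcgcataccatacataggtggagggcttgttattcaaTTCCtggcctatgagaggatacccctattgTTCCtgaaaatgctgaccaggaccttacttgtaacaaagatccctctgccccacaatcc

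Counted on both strands, GGAA stood 6 times in the Clec14a window, 4 times in that of Kdr and 2 times in that of Tek. Of the other matched members, Tie1 had 7 copies, and Flt1 and Emcn 4 each. At least 1 copy was present in 93.45% of 32851 mouse promoter windows of this length, 6 or more copies in 8.69% of them and 7 or more in 3.82%. ACAAT, counted separately and also on both strands, occurred 1 time in the Clec14a window and 2 times in that of Tek, with none in that of Kdr, and 27.66% of all windows held it. These are letter matches in a sequence, and the arrays did not measure binding.

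Values are on the log2 scale of RMA, a procedure that corrects background, equalises the arrays and combines the probes of a probe set. A gene is represented by its brightest probe set, and a difference is KO minus WT, so 1 log2 unit is a doubling. Array medians lay between 2.97 and 3.02, and the upper quartile of all values was 4.54. No detection calls were analysed here, and differences of probe sets near the medians can be understated.

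Clec14a stood at 3.14, 3.46 and 3.33 in the KO arrays and at 4.21, 4.12 and 4.01 in the WT arrays. Every KO value was below every WT value. The means were 3.31 ± 0.17 in KO and 4.12 ± 0.10 in WT (SD, n = 3 each), a difference of -0.81, or 1.75-fold lower in KO. This difference is what selected the gene and carries no test here. The KO values are close to the array medians, so the fold can be too small. A second Clec14a probe set lay at 2.15, 2.15 and 2.52 in KO and 2.55, 2.10 and 2.23 in WT, with only 16.99% of all values below its mean. It differed by -0.02 (95% interval -0.34 to 0.30), and its groups overlapped. The lower Clec14a level therefore rests on 1 probe set, which lies in the dimmer part of the scale, with 65.2% of all values below its mean.

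The other 9 markers did not pass the test over the whole table. Of the 10 members 1, the selecting gene Clec14a, was lower past the threshold, where 0.0275% of all genes were, and nothing is read from that count. The call was lost, at 0 of 10, with any 1 array left out, with the replicate block, with the Xist covariate and with the mean of a gene's probe sets. By limma with Benjamini-Hochberg adjustment over 45037 probe sets, 0 of the 9 had an adjusted p under 0.05, and 1 of them, Tek, had an unadjusted p under 0.05. Over all genes, 0.132% passed the adjusted threshold and 10.1% had an unadjusted p under 0.05. By the brightest probe set, the KO and WT values overlapped in each of the 9. Over all genes, KO values lay wholly below WT values in 7.56% and wholly above them in 6.87%, so a count of 0 among 9 genes is near the background. Their median difference was -0.04, against -0.00056 over all 18193 genes, with 6 lower and 3 higher. With 1 array left out this median ran from -0.114 without WT replicate 1 to -0.018 without KO replicate 2.

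Averaged over the 9 markers, the log2 level was 4.72, 4.65 and 4.77 in the KO arrays and 4.73, 4.81 and 4.80 in the WT arrays. The group means were 4.72 ± 0.06 in KO and 4.78 ± 0.05 in WT (SD, n = 3 each), a difference of -0.06. KO replicates 1 and 3 lay within or next to the WT range, and KO replicate 2 was lowest.

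**Figure D1:**
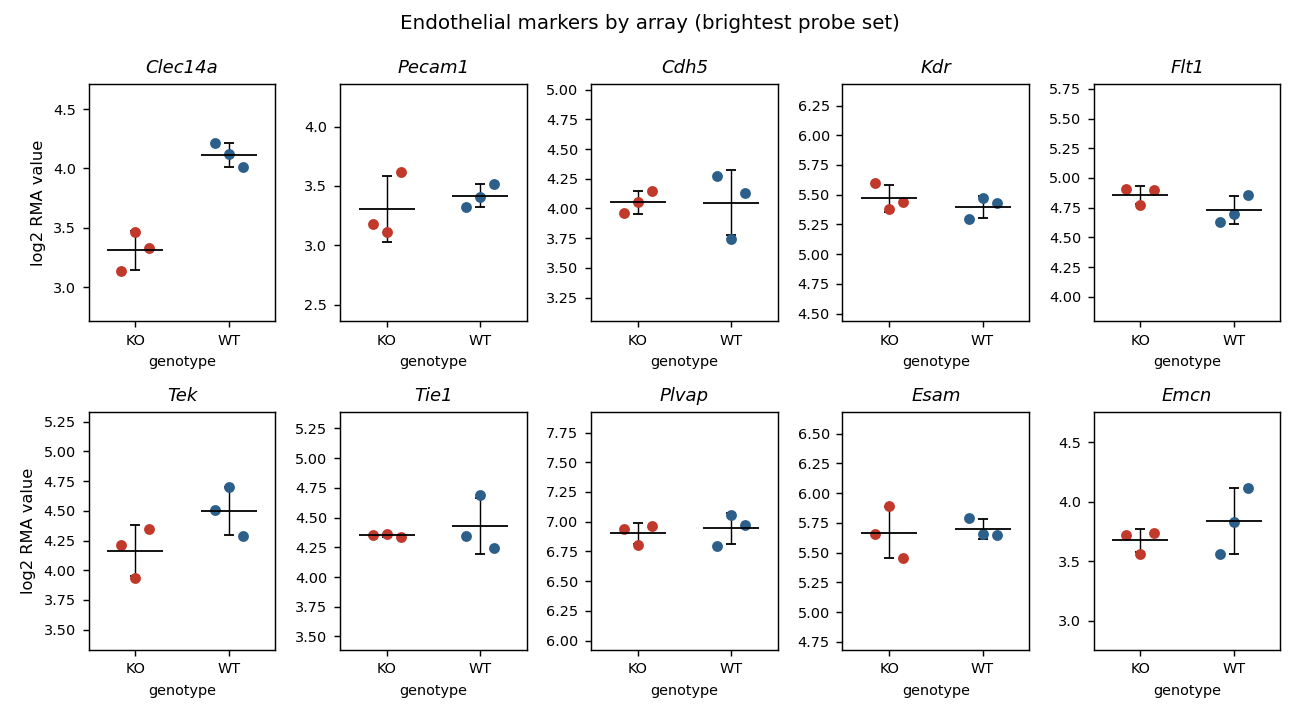
Log2 RMA value of the brightest probe set of each of the 10 endothelial markers, with KO left of WT, 1 point per array (replicates 1 to 3 from left to right), the mean as a line and the SD as a bar. Each vertical axis spans the same number of log2 units and is centred on the gene; Clec14a separates by genotype, at 3.14 to 3.46 in KO and 4.01 to 4.21 in WT, while the points of the other 9 genes overlap.

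Among the junction genes, VE-cadherin (Cdh5), the adhesion molecule of endothelial adherens junctions, measured 3.96, 4.05 and 4.15 in KO and 4.28, 3.74 and 4.13 in WT. The difference was 0.00 (95% interval -0.30 to 0.31), with all KO values inside the WT range. A dimmer Cdh5 probe set differed by -0.13 (-0.34 to 0.08). Pecam1, an adhesion molecule at endothelial contacts that platelets and some leukocytes also carry, measured 3.18, 3.11 and 3.62 in KO and 3.33, 3.41 and 3.52 in WT. KO replicate 3 was the highest of the 6 arrays and KO replicate 2 the lowest, and the difference was -0.11 (-0.42 to 0.19). Esam, a tight junction protein of endothelium and platelets, measured 5.66, 5.89 and 5.46 in KO and 5.79, 5.66 and 5.65 in WT. Its groups overlapped, with a difference of -0.03 (-0.29 to 0.24).

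The VEGF receptors overlapped between the genotypes by their brightest probe sets. Kdr (VEGFR2), the main signalling receptor for VEGF-A, measured 5.60, 5.38 and 5.43 in KO and 5.30, 5.47 and 5.43 in WT, a difference of 0.07 with a 95% interval of -0.15 to 0.29. Its highest value was in KO replicate 1 and its lowest in WT replicate 1. Flt1 (VEGFR1), which binds VEGF-A tightly and can limit its action, measured 4.91, 4.77 and 4.90 in KO and 4.63, 4.70 and 4.86 in WT, a difference of 0.13 (-0.09 to 0.34). The 4 Flt1 probe sets did not point one way. The second brightest lay at 4.12, 4.23 and 4.13 in KO and 4.33, 4.28 and 4.35 in WT, with every KO value below every WT value, a difference of -0.16 (-0.35 to 0.03) and an adjusted p of 0.636. The remaining Flt1 probe sets, both below the array medians, differed by 0.09 and 0.01.

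Of the receptors for the angiopoietin pathway, Tek (TIE2), the receptor that angiopoietins bind, measured 4.21, 3.94 and 4.35 in KO and 4.50, 4.70 and 4.29 in WT. The groups overlapped through KO replicate 3 and WT replicate 3. The difference was -0.33 (-0.64 to -0.03), with an adjusted p of 0.536. Tie1, the related receptor that modulates TIE2, measured 4.35, 4.36 and 4.34 in KO and 4.34, 4.69 and 4.25 in WT, a difference of -0.08 (-0.34 to 0.19). The KO arrays were nearly equal and lay inside the WT range, in which replicate 2 was high.

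The markers of capillary surface and fenestrae also overlapped. Plvap, which forms the diaphragms of fenestrae and caveolae, was the member highest in its array, with 92.2% of all values below its mean. It measured 6.94, 6.80 and 6.97 in KO and 6.80, 7.06 and 6.97 in WT, a difference of -0.04 (-0.27 to 0.18). Emcn (endomucin), a sialoglycoprotein of capillary and venous endothelium, measured 3.72, 3.56 and 3.74 in KO and 3.56, 3.83 and 4.12 in WT. WT replicate 3 alone lay well above the KO arrays, and the difference was -0.16 (-0.47 to 0.14).

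Over the 9 markers the lower bounds of the 95% intervals ran from -0.64 for Tek to -0.09 for Flt1. For Plvap the interval reached down to a 1.20-fold lower level in KO, and for Kdr to a 1.11-fold lower level.

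**Figure D2:**
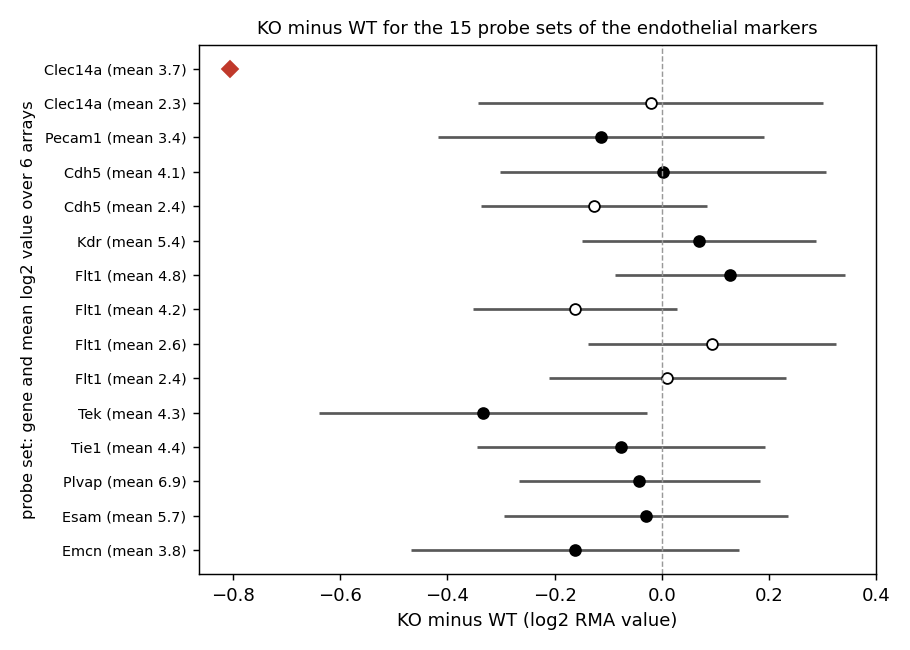
KO minus WT on the log2 scale for the 15 probe sets of the 10 endothelial markers, with 95% intervals from limma; filled symbols mark the brightest probe set of a gene and open symbols its other probe sets. The red diamond is the Clec14a probe set that selected the gene, drawn with no interval at -0.81; the other 14 points lie between -0.33 for Tek and 0.13 for Flt1.

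After each genotype's mean was subtracted, the 9 other markers did not vary together across the arrays. Over their 36 pairs the median of Pearson's coefficient was -0.0042, from -0.90 to 0.95, with 18 pairs positive; all pairs share the same 6 arrays. Of the 7153 genes whose mean level was above the upper quartile, those whose values over the 6 arrays were most like those of Clec14a were Zfp91, Pdf, Hikeshi, Smad3 and Scg2, with a Pearson coefficient of 0.987 to 0.994. Since Clec14a separates by genotype, this measure picks genes that do so as well, and their differences ran from -0.38 for Smad3 to -0.20 for Hikeshi. With the genotype means subtracted, the most alike were Gtf2h4, Lsm1, Rab40c, Ppif and Smpd2, at 0.986 to 0.990. No gene was in both sets of 5. The 9 other markers, of which those below the upper quartile were not in that search, had coefficients with Clec14a from -0.77 for Flt1 to 0.65 for Tek, and from -0.87 for Kdr to 0.51 for Esam with the genotype means subtracted. With 6 arrays such coefficients are a description of these values.

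A further list held Clec14a with its lectin relatives and its ligand. All 5 genes had a lower mean in KO, where 50.2% of all genes did. Their median was -0.23, and -0.40 without KO replicate 3. Clec14a, which was selected for its low KO values, is included in that count and median. Apart from Clec14a, 0 passed the threshold. These genes were described in full whatever their result. Cd93, a relative that binds multimerin-2 too, measured 5.97, 5.84 and 6.00 in KO and 6.26, 6.23 and 6.42 in WT. Mmrn2 itself measured 5.38, 5.42 and 5.39 in KO and 5.61, 5.62 and 5.67 in WT. In both genes every KO value was below every WT value. This held for 3 of the 5 genes, the selected Clec14a among them, and for 7.56% of all genes.

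The difference was -0.37 for Cd93 (95% interval -0.58 to -0.16, adjusted p 0.308) and -0.23 for Mmrn2 (-0.42 to -0.05, adjusted p 0.455). Thbd (thrombomodulin), the endothelial cofactor that turns thrombin toward anticoagulation, overlapped between groups at -0.22 (-0.68 to 0.23). Cd248, the relative found on pericytes and fibroblasts rather than endothelium, overlapped as well, at -0.07 (-0.35 to 0.21).

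In another list of 29 endothelial genes, 0 passed the threshold, 18 were lower and 11 higher, and the median difference was -0.10. Mmrn2, described above, is also in this list and is counted again in it. Groups did not overlap in 10 with KO lower, which is 34.5% of the list against 7.56% of all genes, and in 3 with KO higher, against 6.87% of all genes. At an unadjusted p under 0.05, 6 were lower and 1 higher, where 5.58% and 4.55% of all genes were. The median was -0.0078 without WT replicate 2, and from -0.14 to -0.09 with another array left out. These genes share the same arrays and are not independent of each other.

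Sox7, a transcription factor of endothelium, had the smallest p of this list. It measured 3.61, 3.74 and 3.60 in KO and 4.09, 4.10 and 4.06 in WT, a difference of -0.43 (95% interval -0.62 to -0.24) with an adjusted p of 0.186. Like Clec14a, it lies in the dimmer part of the scale, with 67.4% of all values below its mean. Aplnr, the receptor for apelin, measured 6.25, 5.98 and 6.18 in KO and 6.50, 6.98 and 6.42 in WT, a difference of -0.50 (-0.83 to -0.16, adjusted p 0.389). The groups of both genes did not overlap.

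The ETS and SOX factors named with the promoters were looked at one by one after their values were seen. Fli1 was at 3.27, 3.13 and 3.14 in KO and 2.84, 2.92 and 2.92 in WT, close to the array medians, a difference of 0.29 (adjusted p 0.389). Erg differed by -0.18 (adjusted p 0.657), Sox18 by -0.20 (adjusted p 0.604) and Sox17 by -0.11 (adjusted p 0.855). Fli1 was higher and the other factors lower by their means, and none passed the test.

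**Figure D3:**
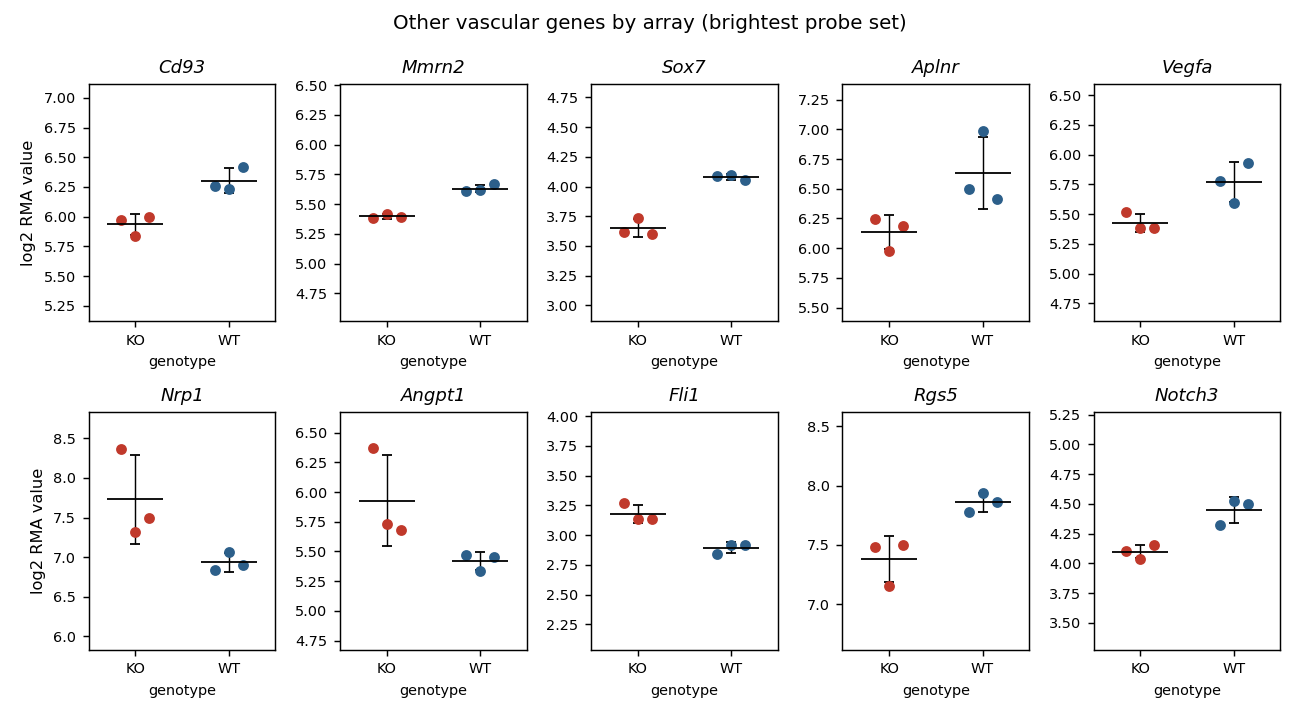
Log2 RMA value of 10 further vascular genes, with KO left of WT, 1 point per array (replicates 1 to 3 from left to right), the mean as a line and the SD as a bar; the axis of Nrp1 spans more log2 units than the others. KO and WT points do not overlap in any of the 10, which were picked among the genes of smallest p, and none passed the threshold over the whole table.

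Ligands and co-receptors of the VEGF and angiopoietin pathways, listed together with Flt4 and Ptprb, had differences in both directions. Of 13 such genes, 0 passed, 6 were lower and 7 higher, with a median of 0.02, which changed sign with KO replicate 3, WT replicate 1 or WT replicate 2 left out (-0.06 to 0.06 over the arrays). Nrp1 (neuropilin-1), a VEGF co-receptor that nerves and other cells also carry, measured 8.36, 7.32 and 7.50 in KO and 6.84, 7.07 and 6.91 in WT. The difference was 0.79 (95% interval 0.28 to 1.30, adjusted p 0.368), and KO replicate 1 was far above the other arrays. Vegfa, the principal endothelial growth factor, measured 5.52, 5.38 and 5.39 in KO and 5.78, 5.59 and 5.93 in WT, a difference of -0.34 (-0.58 to -0.10, adjusted p 0.405).

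Angpt1, the angiopoietin that activates TIE2, was singled out after its values were seen. It measured 6.37, 5.73 and 5.68 in KO and 5.47, 5.33 and 5.45 in WT, a difference of 0.51 (0.13 to 0.89, adjusted p 0.426), again with KO replicate 1 highest. The groups of Nrp1, Vegfa and Angpt1 did not overlap. Of the 13 genes, KO lay wholly below WT in 2, Vegfa and Vegfd, and wholly above in 2, Nrp1 and Angpt1. Over all genes the shares were 7.56% and 6.87%.

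Other vascular lists held no gene past the threshold. Of 13 Notch, arterial and venous genes, 7 were lower, with a median of -0.03 (-0.11 without KO replicate 3 and -0.12 without WT replicate 3), and Gja5 (a connexin of arteries) and the Notch target Hes1 had the smallest p, at 0.29 and -0.21. Of 8 leukocyte adhesion genes, 4 were lower, with a median of -0.01, and the first by p were Vcam1 at -0.22 and F11r at 0.18. Of 6 measured lymphatic genes, 2 were lower, with a median of 0.03, and Flt4 (VEGFR3), at 0.23, and Prox1, at -0.14, led by p. Flt4 is also counted in the VEGF and angiopoietin list. Gja5 and Prox1 lay below the array medians, with 29.2% and 31.5% of all values below their means. The leukocyte adhesion median turned positive without KO replicate 2 or WT replicate 1, within -0.05 to 0.03 over the arrays, and the lymphatic median turned negative without KO replicate 2, KO replicate 3, WT replicate 1 or WT replicate 2, within -0.02 to 0.08.

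Genes of mural cells, the pericytes and smooth muscle around vessels, had a lower mean in KO in 12 of 12 cases. Over all genes, 50.2% did. The median of the list was -0.19 (-0.12 without KO replicate 2), and 0 passed the threshold. Several differences were close to 0, with Pdgfrb at -0.02, Cspg4 at -0.03, Myh11 at -0.02 and Cnn1 at -0.02, and the groups of these genes overlapped. The mean of the list was 4.58 to 4.71 in the KO arrays and 4.80 to 4.90 in the WT arrays. Rgs5, a pericyte regulator of G protein signalling, measured 7.49, 7.16 and 7.50 in KO and 7.78, 7.93 and 7.87 in WT, a difference of -0.48 (95% interval -0.73 to -0.23, adjusted p 0.268). Notch3, the Notch receptor of mural cells, measured 4.10, 4.04 and 4.15 in KO and 4.32, 4.52 and 4.50 in WT, a difference of -0.35 (-0.56 to -0.14, adjusted p 0.33). The groups of both genes were apart. KO values lay wholly below WT values in 4 of the 12 genes, which is 33.3% against 7.56% of all genes.

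Fibroblast and stellate genes had a lower mean in KO in 8 of 8 cases, where 50.2% of all genes did. Their median was -0.38 (-0.25 without KO replicate 1), and 0 passed the threshold. The list mean was 7.41 to 7.90 in KO and 7.90 to 8.31 in WT. Postn and Col1a1 led by p, at -0.82 and -0.61. In 4 of the 8 genes KO values lay wholly below WT values, which is 50% against 7.56% of all genes. Of 4 measured fat genes 3 were lower, with a median of -0.24 (-0.37 with WT replicate 1 left out, -0.13 with WT replicate 2 and -0.14 with KO replicate 1) and a list mean of 4.07 to 5.17 in KO and 4.89 to 5.67 in WT; Fabp4 differed by -0.44 and Adipoq by -1.51. Of 4 genes listed as mesothelial 4 were lower, with a median of -0.22. Krt19, which is not particular to mesothelium, was at -0.26 and Wt1 at -0.20. Wt1 and Msln were dim, with 45.1% and 43.5% of all values below their means. The mesothelial median was 0.018 without KO replicate 1, -0.34 without KO replicate 3 and -0.045 without WT replicate 2. Adipoq measured 2.26 in KO replicate 1 and 5.73 and 5.65 in the other KO arrays, against 5.12 to 6.99 in the WT arrays, and the mesothelial gene Upk3b, singled out after its values were seen, measured 3.70 there against 4.80 to 5.66 in WT. KO replicate 1 also had the lowest Clec14a value, and the difference of Clec14a without it was -0.72. The part of these cell types in the Clec14a and mural cell values was not tested.

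Of the other lists, 2 of 6 measured immune and blood genes were lower, with a median of 0.05 (0.14 without KO replicate 1, 0.032 without KO replicate 3 and 0.096 without WT replicate 2), Adgre1 at -0.26 and Cd3e at 0.24. All 6 acinar genes had a lower mean in KO, with a median of -0.03, Ptf1a at -0.56 and Bhlha15 at -0.18, and 4 of them lay near the top of the scale. All 6 islet genes were lower, with a median of -0.13 (-0.051 without KO replicate 1 and -0.088 without WT replicate 2), Ppy at -0.30 and Iapp at -0.14. None of the genes of these lists passed the threshold. Over all genes, 50.2% had a lower mean in KO.

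**Figure D4:**
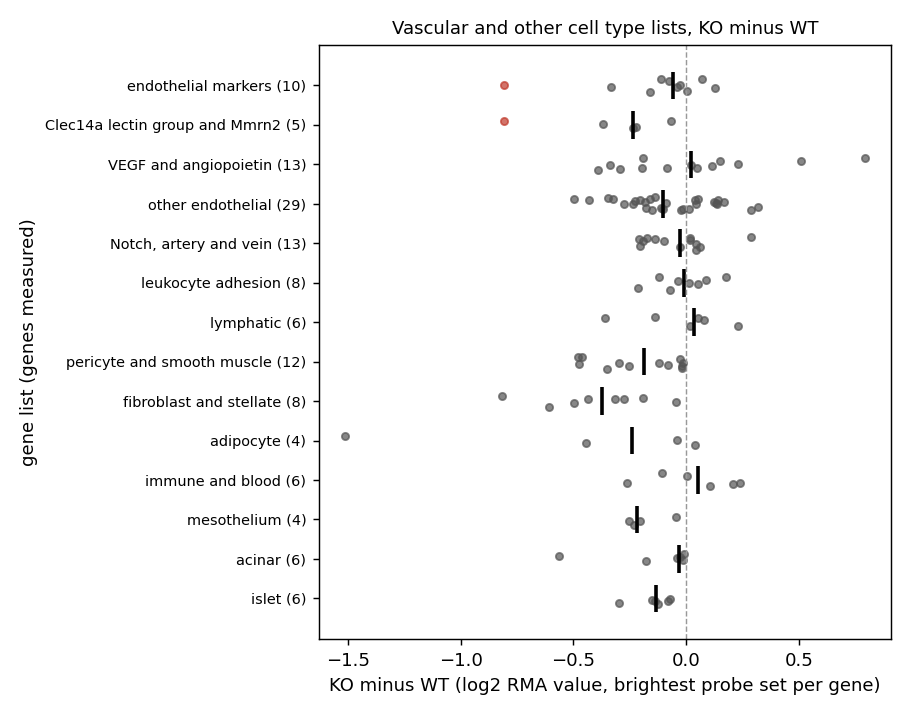
KO minus WT on the log2 scale for each measured gene of 14 lists, 1 point per gene by its brightest probe set, with the list median as a black bar and the median of all genes as a dashed line; Clec14a is red. The median of the endothelial markers is -0.06, those of the mural cell and fibroblast lists are -0.19 and -0.38, and Clec14a is the lowest point of the first 4 lists.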

How the data were processed

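Affymetrix arrays, 1 per sample, measured whole pancreas RNA of 3 KO and 3 WT samples, grouped by title. The deposited log2 values come from RMA (affy package), per the submitters' processing notes; its settings and versions are not stated in the labels. Control probe sets, 64 of 45101, were left out. In the platform annotation 34958 probe sets had 1 gene symbol, 932 several and 9211 none. For 34754 of those with 1 symbol, the Entrez identifier was found in RefSeq. The RefSeq symbol was then used, whether or not it differed.

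KO minus WT was fitted by limma 3.58.1 (lmFit, eBayes; R 4.3.3), two-sided and without covariates. P-values were adjusted by Benjamini-Hochberg over 45037 probe sets, and 95% intervals have 9.53 degrees of freedom. In simulated data with 200 changed probe sets, 92% of 1-unit and 100% of 2-unit log2 changes were recovered. In the measured data 24 of 18193 genes passed. The adjusted threshold is stricter where fewer probe sets change, so the recovered shares can be too high for these data. Smaller changes, such as the differences of the 10 members, were not simulated. The number of arrays limits the precision. A p-value sets the difference of a probe set against the spread between these samples, which limma adjusts using the variances of all probe sets.

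Members and lists were chosen with earlier results of these data known. The naming rule took the 10 members, Pebp1, the 2 genes of smallest p in each list with none past the threshold, and the 5 genes most like Clec14a by each of 2 measures; Cd93, Mmrn2, Thbd and Cd248 fell outside it. Some listed genes, such as Ccl21a and Plin1, were not analysed here. Alternatives varied the normalization, dim and suffixed probe sets, variance model, array weights, replicate block, Xist covariate, arrays included, probe sets per gene and threshold.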

Additional observations from a re-analysis of the deposited data

How the results depend on the processing

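Of the 10 markers, 1, Clec14a, passed in the fit as reported, and it was the selecting gene. It did not pass (0 of 10) with the replicate number as a block, with the Xist level as a covariate, or with the mean of a gene's probe sets, and leaving out any 1 array gave 0 of 10 each time; these fits have fewer arrays or degrees of freedom, or average in the dim second probe set. The Clec14a difference ran from -0.88 to -0.41, and was -0.41 with the mean of its probe sets. Since these values selected the gene, its passing or failing is not read as a test. None of the other 9 passed in any of 142 refitted values, with adjusted p from 0.342 to 0.999. Their median was -0.114 to -0.018 with 1 array left out, -0.114 being the value without WT replicate 1. Signs of differences near 0 turned. With a second quantile normalization Cdh5 was -0.0017, Plvap 0.036 and Esam 0.019. Cdh5 was also -0.019 with equal medians, -0.056 with the Xist covariate and -0.062 with the mean of its probe sets. With 1 array left out, Cdh5 ran from -0.15 to 0.12, Plvap from -0.114 to 0.016, Esam from -0.14 to 0.076 and Tie1 from -0.17 to 0.057. With genotype means subtracted, KO and WT arrays of the same number had correlations of 0.19, -0.03 and -0.08 for numbers 1, 2 and 3. Those of different numbers ran from -0.16 to 0.18. With 3 arrays per group these values cannot show whether the numbers pair the arrays. With the replicate block the median of the 9 was -0.04.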
